A study of Mus musculus with 167 samples.

Results

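The 8 mouse genes Gas5, Zfas1, Snhg1, Snhg3, Snhg5, Snhg6, Snhg8 and Snhg12, whose long noncoding RNAs carry small nucleolar RNAs (snoRNAs) in their introns, were followed in single lymphoid-primed multipotent progenitors (LMPPs). The genes were taken from a list by symbol, and 6 of the 8 had a row among the 38924 genes of the deposited table. The identifiers of Snhg1 and Snhg8 in the annotation used here matched no row, so these 2 have no level and their RNA was not analysed here. The LMPPs came from the bone marrow of wild-type female C57BL/6J mice of 14 and of 4 months. The sort took Flt3hi cells that were CD34+, c-Kit+ and Sca-1+ and that were CD150- and Lin-, and they were captured one by one on a microfluidic chip. With 1000 or more genes at TPM 1 or more required, 66 of 84 columns were kept at 14 months and 64 of 84 at 4 months. Each age is 1 sample, since the labels name no animal, so its cells are not replicates and no difference below was tested. The 14-month columns carry a set number, 4 (29 kept cells) or 5 (37 kept cells), which no label explains, and age cannot be told apart from capture.

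A snoRNA host gene is transcribed as a longer RNA whose introns hold snoRNAs. After splicing, the snoRNAs are trimmed out of the introns and enter the nucleolus, where box C/D snoRNAs guide ribose methylation and box H/ACA snoRNAs guide pseudouridylation of ribosomal RNA. The spliced exons of hosts such as Gas5 are exported, taken up by ribosomes and degraded by nonsense-mediated decay when translation is active. Many hosts start at a 5′ terminal oligopyrimidine (5′ TOP) tract, a C followed by further C or T, which they share with the genes of ribosomal proteins and which links them to growth signals. Gas5, growth arrest-specific 5, is named for its accumulation in cells that stop growing.

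The starts of the host genes are shown because the tract that ties a host to growth signals lies there. RefSeq promoter windows (build GRCm38.p6) were matched for 7 of the 8 genes, with 2 starts for Gas5. Each line gives 30 bases before the start and 30 from the start on, 5′ to 3′ on the gene's own strand. Capitals mark the first C within 5 bases of the start that is followed by 4 or more C or T.
Gas5 upstream start, chr1:161034571-161034630, plus strand: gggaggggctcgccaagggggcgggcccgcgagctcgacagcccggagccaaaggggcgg
Gas5 downstream start, chr1:161035136-161035195, plus strand: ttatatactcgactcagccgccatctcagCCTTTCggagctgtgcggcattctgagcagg
Zfas1 start, chr2:167062904-167062963, plus strand: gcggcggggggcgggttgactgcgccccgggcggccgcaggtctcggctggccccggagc
Snhg5 start, chr9:88522868-88522927, minus strand: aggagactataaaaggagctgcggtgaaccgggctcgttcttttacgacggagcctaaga
Snhg3 start, chr4:132353657-132353716, minus strand: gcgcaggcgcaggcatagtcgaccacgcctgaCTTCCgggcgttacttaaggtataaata
Snhg12 start, chr4:132308648-132308707, plus strand: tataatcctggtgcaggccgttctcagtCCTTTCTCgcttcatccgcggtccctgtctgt
Snhg1 start, chr19:8723457-8723516, plus strand: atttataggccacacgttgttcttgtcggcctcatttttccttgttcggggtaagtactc
Snhg8 start, chr3:123508307-123508366, minus strand: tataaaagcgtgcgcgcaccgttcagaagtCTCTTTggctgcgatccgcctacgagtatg
Such a tract stood at 4 of the 8 starts, those of Gas5 (downstream), Snhg3, Snhg12 and Snhg8. The search read the gene's strand only. The same search found one in 18.3% of all 32851 RefSeq promoter windows and in 42.1% of the 76 windows of cytosolic ribosomal protein genes. A run beginning at the start base itself stood at 2 of the 8 starts. It stood in 2.51% of all windows and 18.4% of those of ribosomal protein genes. No such run begins within 5 bases of the starts of Zfas1, Snhg5 and Snhg1 or of the upstream start of Gas5, and places farther from the start were not searched. These matches describe the sequence and do not mark a proven start in these cells.

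The snoRNAs are shown because they are what the hosts carry. Sequences are those of the GENCODE M21 transcripts (build GRCm38). Capitals mark TGATGA within the first 20 bases (box C) and CTGA within the last 20 (box D) for the Snord RNAs, and the ACA near the end of Snora73b.
Snord47 in Gas5, chr1:161038082-161038158, plus strand: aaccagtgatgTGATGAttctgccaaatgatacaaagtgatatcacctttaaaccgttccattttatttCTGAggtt
Snord12 in Zfas1, chr2:167065276-167065365, plus strand: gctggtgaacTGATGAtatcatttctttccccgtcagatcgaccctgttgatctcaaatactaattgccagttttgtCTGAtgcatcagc
Snord50a in Snhg5, chr9:88521529-88521600, minus strand: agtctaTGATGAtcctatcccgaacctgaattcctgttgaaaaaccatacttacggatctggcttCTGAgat
Snord50b in Snhg5, chr9:88521797-88521868, minus strand: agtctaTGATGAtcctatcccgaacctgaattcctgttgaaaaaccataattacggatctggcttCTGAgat
Snord87 in Snhg6, chr1:9942463-9942549, minus strand: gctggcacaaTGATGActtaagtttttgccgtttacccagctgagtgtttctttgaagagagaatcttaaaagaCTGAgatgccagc
Snora73b in Snhg3, chr4:132352322-132352526, minus strand: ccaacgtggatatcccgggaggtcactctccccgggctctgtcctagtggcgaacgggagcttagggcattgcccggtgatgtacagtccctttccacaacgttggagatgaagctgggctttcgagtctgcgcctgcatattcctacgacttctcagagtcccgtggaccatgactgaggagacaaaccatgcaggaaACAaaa
Snord50a and Snord50b, carried side by side by Snhg5, are both 72 bases long and differ by C50A, with positions counted from 1 at the 5′ end. Inside the 8 hosts lie 32 annotated snoRNA genes, of which 30 have a row in the table, 9 of them within Gas5. Of those 30, 25 were listed at 0 in every kept cell, 0 of 130, which allows a share of cells with such a row detected of up to 2.31%. This includes all 9 in Gas5 and all 3 in Zfas1. The other 5 were detected in few cells: Snora73b in 6 (all 4-month), Snord22 of Snhg1 in 5, Snora24 of Snhg8 in 3, Snora16a of Snhg12 in 2 and Snora73a in 1. The values of the hosts below are those of the host rows and give no level of the snoRNAs. Of the 32, 24 touch no exon of a spliced host isoform, but none of those in Snhg12 is among these 24. Every snoRNA of Gas5 and Zfas1 lies within an exon of some annotated isoform. Whether reads from such stretches were counted in a host row was not tested.

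Gas5 was far more abundant than the other hosts. TPM is a level per transcript length, so genes can be set beside each other. Over the 130 kept cells Gas5 had a mean of 2625 TPM, rank 43 of all genes, or 33 without mitochondrial ones. Zfas1 followed at 206 TPM (rank 630) and Snhg5 at 166 TPM (rank 760). Snhg6 at 87.7 TPM, Snhg3 at 87.2 TPM and Snhg12 at 81.5 TPM lay close together. The last 3 differ by much less than the spread of any of them over cells, and so do Zfas1 and Snhg5. In the median cell Gas5 supplied 80.0% of the summed TPM of the 6 hosts at 14 months and 82.1% at 4 months. The 6 together made up a median 0.304% of all TPM in 14-month cells and 0.343% in 4-month cells.

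**Figure D1:**
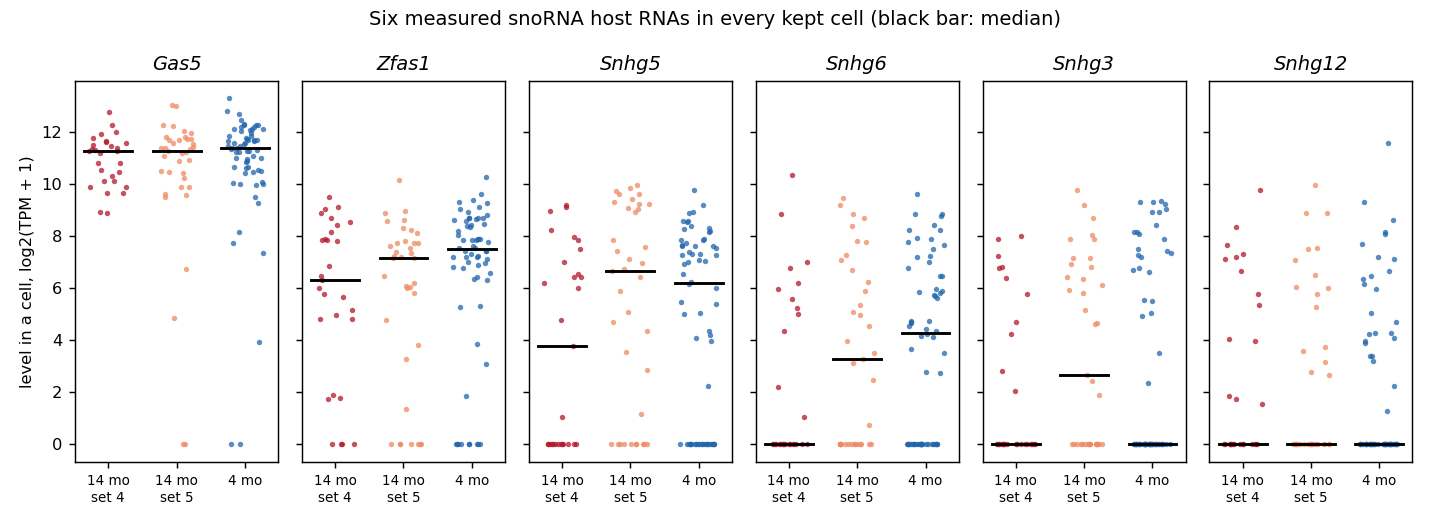
Level of each of the 6 measured host RNAs in every kept cell, as log2(TPM + 1) on the vertical axis, with 1 point a cell and a black bar at the median; columns are the 14-month cells of set 4 (n = 29) and set 5 (n = 37) and the 4-month cells (n = 64). Gas5 is high in most cells, with 4 cells at 0 and a few between, while Snhg3 and Snhg12 are at 0 in more than 50% of the cells of each age.

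Gas5 (chr1:161034422-161038539, plus strand) was detected, at TPM 1 or more, in 64 of 66 cells at 14 months (97.0%, exact Clopper-Pearson 95% interval 89.5 to 99.6%) and in 62 of 64 at 4 months (96.9%, interval 89.2 to 99.6%). Ranges in brackets after shares below are such intervals, and all cover counting error only. The level ran from 0 through a median of 2441 to 8313 TPM at 14 months and from 0 through 2650 to 9996 TPM at 4 months, so the ages overlap over nearly the whole range. Its coefficient of variation over cells, 0.699 at 14 months and 0.668 at 4 months, was rank 71 and rank 76 from the lowest among the 100 genes of highest mean in that age. Gas5 thus lay above the median of those 100 genes, which was 0.623 at 14 months and 0.536 at 4 months. The highest of them reached 8.12 at 14 months and 3.27 at 4 months. The antisense gene Zbtb37 shares 428 bases with Gas5 and averaged 6.96 TPM at 14 months, against 6.86 TPM at 4 months. Nothing in the sources states how strand was treated in the count, so reads from shared bases cannot be told apart.

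Zfas1 (chr2:167062934-167065862, plus strand), the host of Snord12 and 2 related snoRNA genes, was the second most often detected host. It was found in 83.3% of cells at 14 months (72.1 to 91.4%) and in 85.9% at 4 months (75.0 to 93.4%). Its level ran from 0 through a median of 100 to 1122 TPM at 14 months and from 0 through 178 to 1228 TPM at 4 months. The 14-month median was lower in both sets, at 78.1 TPM in set 4 and 143 TPM in set 5. The intervals of the shares overlap, and so do the levels. Znfx1, antisense to it over 82 bases, was detected in 7.58% of 14-month and 10.9% of 4-month cells.

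Snhg5 (chr9:88521050-88522929, minus strand) was found in 65.2% of cells at 14 months (52.4 to 76.5%) and in 67.2% at 4 months (54.3 to 78.4%). Its level ran from 0 through a median of 60.8 to 998 TPM at 14 months and from 0 through 72.7 to 868 TPM at 4 months. The 14-month sets did not look alike, with medians of 12.7 TPM in set 4 and 101 TPM in set 5 and shares of 55.2% and 73.0%. Snhg6 (chr1:9941959-9944118, minus strand), which carries Snord87, was found in 50.0% of cells at 14 months (37.4 to 62.6%) and in 60.9% at 4 months (47.9 to 72.9%). Its level ran from 0 through a median of 0.875 to 1306 TPM at 14 months and from 0 through 18.7 to 789 TPM at 4 months. The 14-month median thus lies just under the detection limit. Mcmdc2 shares 127 bases with Snhg6 on the other strand. It was itself found in 71.2% of cells at 14 months and 79.7% at 4 months, which leaves the split of reads between them uncertain.

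Snhg3 (chr4:132348014-132353686, minus strand), host of the H/ACA snoRNAs Snora73a and Snora73b, was found in 48.5% of cells at 14 months (36.0 to 61.1%) and in 40.6% at 4 months (28.5 to 53.6%). Its median was 0 TPM at both ages, and the highest cell reached 881 TPM at 14 months, against 643 TPM at 4 months. Cells with Snhg3 detected had a median of 83.5 TPM at 14 months and 177 TPM at 4 months. The intervals of the shares overlap. By set, the 14-month share was 37.9% in set 4, below that at 4 months, and 56.8% in set 5, above it. Rcc1, the chromatin-bound exchange factor of Ran, shares 5592 bases with Snhg3 on the same strand, which leaves the split of their reads uncertain. Rcc1 was detected in 13.6% of 14-month and 21.9% of 4-month cells.

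Snhg12 (chr4:132308623-132311024, plus strand), which carries Snora16a, Snora44, Snora61 and Snord99, was found in 45.5% of cells at 14 months (33.1 to 58.2%) and in 40.6% at 4 months (28.5 to 53.6%). Its median was 0 TPM at both ages, with highest cells of 994 TPM at 14 months and 3079 TPM at 4 months. A single cell set the 4-month mean. At 14 months the mean was 73.7 TPM, against 89.6 TPM at 4 months. Without the highest cell of each age it was 59.5 TPM, against 42.1 TPM. The median cell had 4 of the 6 hosts detected at both ages. All 6 were found in 13.6% of 14-month and 15.6% of 4-month cells, and none in 1 cell at 14 months and 2 cells at 4 months.

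Between the ages, no host lay past the bounds used here, though 3 of them did under an alternative. Differences are 14 minus 4 months in mean log2(TPM + 1), a scale that understates the change of low genes, and are given relative to the median difference of the 9224 genes detected in 10% or more of cells. That median was -0.36, since 77.0% of these genes had a lower mean at 14 months, where fewer genes were detected in a cell (median 3281, against 3974.5 at 4 months). Relative to it, 4 hosts lay above and 2 below, with a median of 0.23. The count of hosts at a relative difference of 1 or more, or of -1 or less, was 0 of 6. Of all measured genes, 3.37% lay past the upper and 5.08% past the lower bound. For 0 of the 6 did the intervals of the shares of cells lie apart, against 0.0867% of genes apart and higher at 14 months and 8.16% apart and lower. Fewer cells expressing a gene and less RNA per cell cannot be told apart from the means alone.

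Snhg12 had the highest relative difference, 0.68, with 0.82 in set 4 and 0.61 in set 5. Mean log2(TPM + 1) at 14 months was 2.63 ± 3.32 (SD over 66 cells), against 2.30 ± 3.19 at 4 months (64 cells). Zfas1 had the lowest, -0.50, split as -0.44 in set 4 and -0.52 in set 5. Mean log2(TPM + 1) at 14 months was 5.66 ± 3.16, against 6.52 ± 3.01 at 4 months. These are the 2 hosts on the same side of the median gene in both sets, and the sets share the 4-month cells. In cells with 2000 or more genes the Zfas1 value was 0.15, on the other side, and that of Snhg12 was 1.17, past the bound. Snhg12 was also past it with pseudocount 0.1 (1.08).

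The remaining 4 hosts had opposite signs in the sets, as had 31.3% of all measured genes. Gas5 was at 0.21, with 0.61 in set 4 and -0.07 in set 5, and mean log2(TPM + 1) at 14 months was 10.58 ± 2.29, against 10.72 ± 2.41 at 4 months. After quantile normalization its relative difference was -0.06. Snhg5 was at 0.24, with -0.61 in set 4 and 0.95 in set 5, and at 1.44 in cells matched on genes detected. Snhg3 was at 0.36, with -0.36 in set 4 and 0.95 in set 5. Snhg6 was at -0.36, with -0.94 in set 4 and 0.13 in set 5, and at -3.40 when cell medians were compared. Within one age, then, Snhg5, Snhg3 and Snhg6 differed between sets by more than any host differed between the ages. Set 4 minus set 5, relative to the median gene, was -1.56 for Snhg5, -1.31 for Snhg3 and -1.07 for Snhg6. The sets also differ in the median mitochondrial share of TPM (20.5% in set 4, 15.8% in set 5) and in the cells with 25% or more of the G2/M genes detected (16 of 29 in set 4, 27 of 37 in set 5), and the part of these in the result was not tested.

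**Figure D2:**
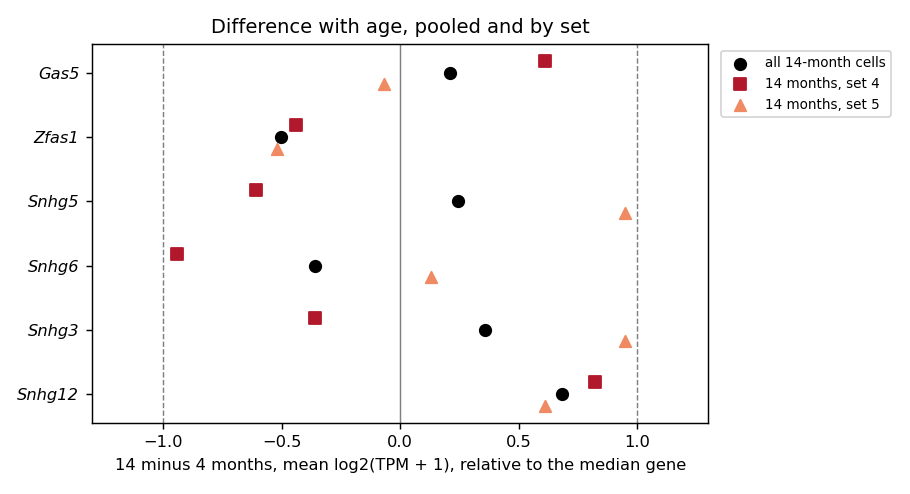
Relative difference of each host, 14 minus 4 months, on the horizontal axis in log2(TPM + 1) units relative to the median gene; black circles use all 14-month cells, squares set 4 and triangles set 5, and dashed lines mark -1 and 1. All pooled points lie between -0.50 and 0.68, and for Gas5, Snhg5, Snhg6 and Snhg3 the 2 sets fall on opposite sides of 0.

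The hosts did not share a direction with the cell cycle. Cells were split, within an age, at 25% of the 53 measured G2/M genes detected, with 43 past and 23 under the cut at 14 months and 38 past and 26 under it at 4 months. The cut is a point on a range, with 14 cells of each age within 5 points of it. Cells past it also had more genes detected, a median of 3874 past and 2532 under at 14 months and 4725 past and 3396.5 under at 4 months, so values in cells matched on genes detected are given beside the others. The median gene was 0.49 higher past the cut at 14 months and 0.72 higher at 4 months, and differences are given relative to that. The G2/M list that made the cut lay at 2.08 at 14 months and 1.65 at 4 months, and the S phase list at 1.06 and 1.51.

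The median level of Gas5 was lower past the cut at both ages. It was 2322 TPM in 43 cells past it and 3268 TPM in 23 under it at 14 months, and 2269 TPM in 38 cells past it and 3325 TPM in 26 under it at 4 months. The groups overlap, with highest cells of 8249 TPM past and 8313 TPM under at 14 months, and of 4600 TPM past and 9996 TPM under at 4 months. In mean log2(TPM + 1) the relative difference was -0.96 at 14 months, with -0.95 in set 4 and -0.81 in set 5, but -0.08 at 4 months. After quantile normalization it was -0.14 at 14 months and, with the sign turned, 0.39 at 4 months. In pairs of cells matched on genes detected it was -2.04 at 14 months (10 cells each) and -1.11 at 4 months (12 cells each). Without cells with Gas5 under TPM 1, the relative difference was -1.21 at 14 months (42 past, 22 under). At 4 months it was then -0.89 (38 past, 24 under), so the -0.08 depended on the few cells with Gas5 at 0. That choice was made after seeing the data and drops cells by their Gas5 value.

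Across cells, Spearman's rho of Gas5 with the mean level of the G2/M list was -0.28 at 14 months (66 cells) and -0.10 at 4 months (64 cells). All measured genes had a median rho of 0.18 at 14 months, against 0.23 at 4 months, and 0.0759% of genes at 14 months and 3.79% at 4 months had a lower rho than Gas5. With the ranks regressed on genes detected, the rho of Gas5 was -0.36 at 14 months and -0.24 at 4 months. The 14-month value was not particular to Gas5, since Zfas1 was then at -0.37 and Snhg12 at -0.24. Snhg6 was at -0.13, Snhg5 at -0.08 and Snhg3 at -0.07, beside a median of -0.02 over all measured genes. At 4 months Zfas1 was at -0.002 and Snhg12 at -0.01. All values in a cell share its library and fixed total, and these are descriptions. In the split of cells, the direction depended on the cell cycle list used. When cells were split at 25% of the S list, the relative difference of Gas5 was 0.19 at 14 months and 0.62 at 4 months. That split left 18 cells under the cut at 14 months and 10 at 4 months. The rho of Gas5 with the mean level of the S list was 0.01 at 14 months and -0.15 at 4 months. All measured genes had a median of 0.20 at 14 months and 0.21 at 4 months. With genes detected regressed out, Gas5 was at 0.07 at 14 months and -0.31 at 4 months.

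**Figure D3:**
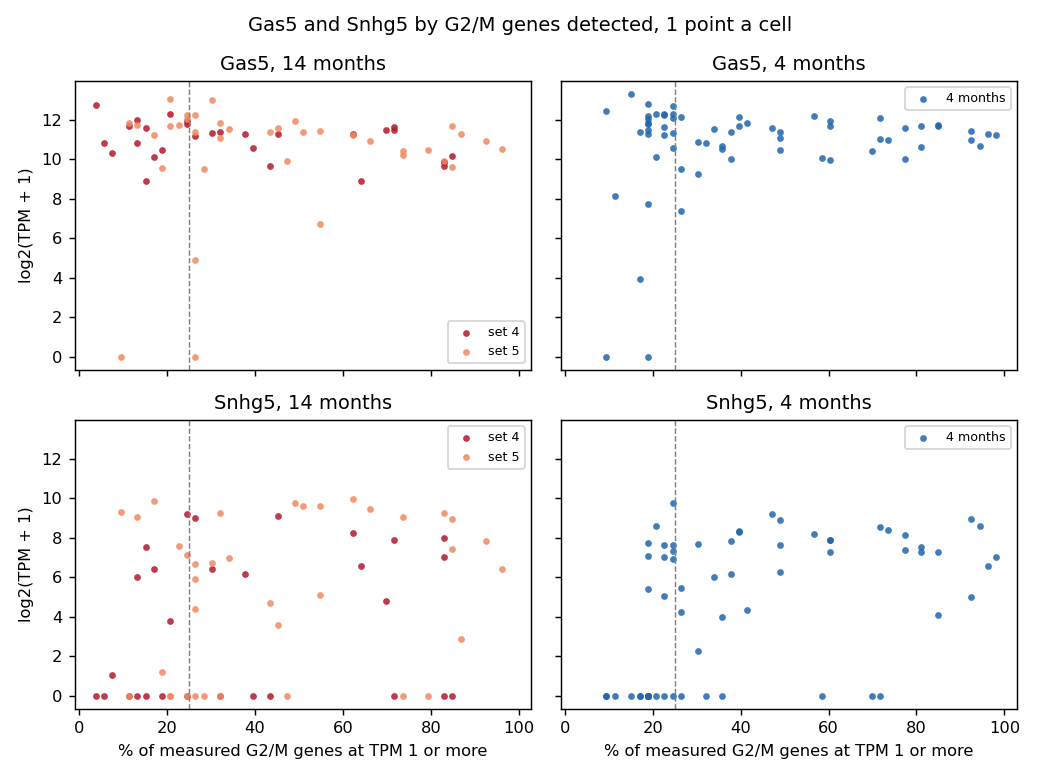
Level of Gas5 (upper panels) and Snhg5 (lower panels) as log2(TPM + 1) on the vertical axis, against the percent of measured G2/M genes detected on the horizontal axis, with 14 months on the left and 4 months on the right; each point is a cell, coloured by set at 14 months, and the dashed line is the cut at 25%. The highest Gas5 cell at each age, 8313 TPM at 14 months and 9996 TPM at 4 months, lies left of the cut, and Snhg5 is at 0 in many cells left of it.

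Snhg5 was detected more often past the cut. The share was 72.1% past (31 of 43, interval 56.3 to 84.7%) and 52.2% under (12 of 23, interval 30.6 to 73.2%) at 14 months. At 4 months it was 84.2% past (32 of 38, interval 68.7 to 94.0%) and 42.3% under (11 of 26, interval 23.4 to 63.1%). Its median was 85.2 TPM past and 1.09 TPM under at 14 months, and 153 TPM past and 0 TPM under at 4 months. The relative difference was 1.38 at 14 months, with 1.51 in set 4 and 0.71 in set 5, and 2.06 at 4 months. In cells matched on genes detected it was -0.08 at 14 months and 1.14 at 4 months, so the 14-month value was lost there. The rho of Snhg5 with the mean level of the G2/M list was 0.18 at 14 months and 0.47 at 4 months. With genes detected regressed out it was -0.08 and 0.07, beside medians of -0.02 and -0.01 over all measured genes. The 4-month relation was thus kept in matched cells but mostly lost after the regression.

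Of the 6 hosts, 1 lay at 1 or more at 14 months, where 13.4% of all genes did, and 3 at 4 months, where 15.6% did. None lay at -1 or less, where 3.55% of genes did at 14 months and 6.79% at 4 months. Besides Snhg5, the 3 at 4 months were Snhg3 (1.50) and Snhg6 (1.46), which were at 0.50 and 0.26 at 14 months, where Snhg6 was at -0.04 after quantile normalization. Snhg3 was detected at 4 months in 52.6% of cells past and 23.1% under, and Snhg6 in 73.7% past and 42.3% under. At 14 months Snhg6 was at 0.64 in set 4 and -0.54 in set 5. In matched cells Snhg3 was at 1.57 at 14 months and turned to -2.20 at 4 months, and Snhg6 was at 1.64 and 1.48. Zfas1 was at -0.07 at 14 months, with -0.48 in set 4 and 0.33 in set 5, and at -0.62 at 4 months. Snhg12 was at 0.00 at 14 months, with -0.85 in set 4 and 0.90 in set 5, and at -0.54 at 4 months. In matched cells Zfas1 was at -1.24 at 14 months and -1.59 at 4 months, and Snhg12 at -1.26 and -0.22. Split at 25% of the S list, both turned, Zfas1 to 1.68 at 14 months and 1.09 at 4 months and Snhg12 to 1.88 and 1.21. The difference of these values between the ages was not tested.

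**Figure D4:**
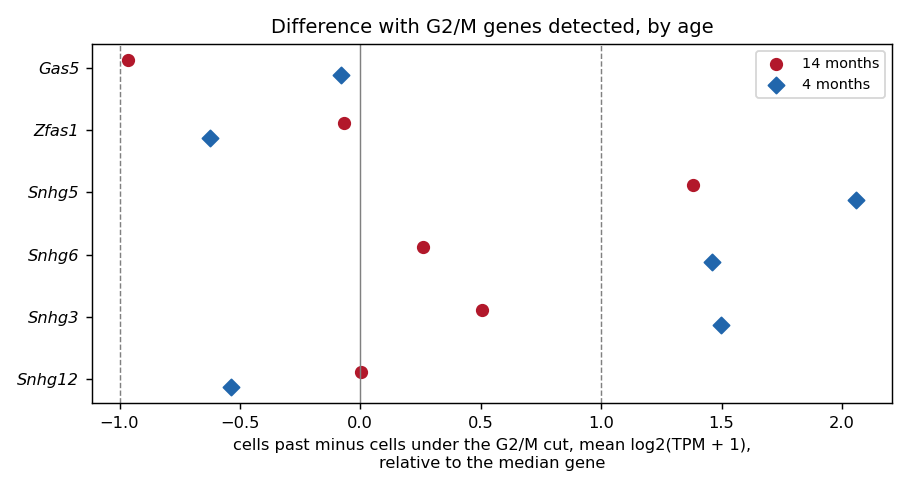
Relative difference of each host between cells past and cells under the G2/M cut, on the horizontal axis in log2(TPM + 1) units relative to the median gene; circles are 14-month and diamonds 4-month cells, and dashed lines mark -1 and 1. Snhg5 lies past 1 at both ages (1.38 and 2.06), Snhg3 and Snhg6 at 4 months, and Gas5 is the lowest at 14 months (-0.96).

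The hosts varied together weakly. The median Spearman's rho over their 15 pairs was 0.18 at 14 months, with 14 pairs positive, and 0.14 at 4 months, with 13 positive. Of all pairs of measured genes, 70.6% were positive at 14 months and 73.0% at 4 months. In set 4 alone 9 of the 15 were positive, beside 59.4% of all pairs, and in set 5 alone 13, beside 68.4%. All pairs of measured genes had a median of 0.07 at 14 months, against 0.09 at 4 months. With genes detected regressed out, the hosts were at 0.08 at 14 months and 0.07 at 4 months, and all pairs at 0.00 in both. Then 14 of the 15 pairs were positive at 14 months, beside 51.2% of all pairs, and 8 at 4 months, beside 51.3%. In set 4 alone, with the same regression, 8 of the 15 were positive (median 0.02), beside 48.9% of all pairs. In set 5 alone 13 were (median 0.19), beside 50.7%. The highest pair was Zfas1 with Snhg12 at 14 months (0.43), which had -0.01 at 4 months, and Gas5 with Zfas1 at 4 months (0.47), which had 0.20 at 14 months.

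The genes whose levels most resembled Gas5 and Zfas1 were ribosomal protein genes. Likeness was the mean of Spearman's rho taken within 4-month, set 4 and set 5 cells, over 4157 genes found in 30% or more of cells. For Gas5 the first 3 were Rps3 (0.47), Rplp0 (0.44) and Rpl18 (0.44). For Zfas1 they included Rpl4 (0.51) and Rpl23a (0.47). Rps3, Rpl4 and Rpl23a themselves carry snoRNAs. Of the 50 genes most like Gas5, 29 (58.0%) were cytosolic ribosomal protein genes, and of the 50 most like Zfas1, 23 (46.0%) were. They are 79 of the 4157 genes, or 1.90%. The count of 50 was chosen after the first 3 had been seen, and the candidates were not matched to the hosts on abundance.

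**Figure D5:**
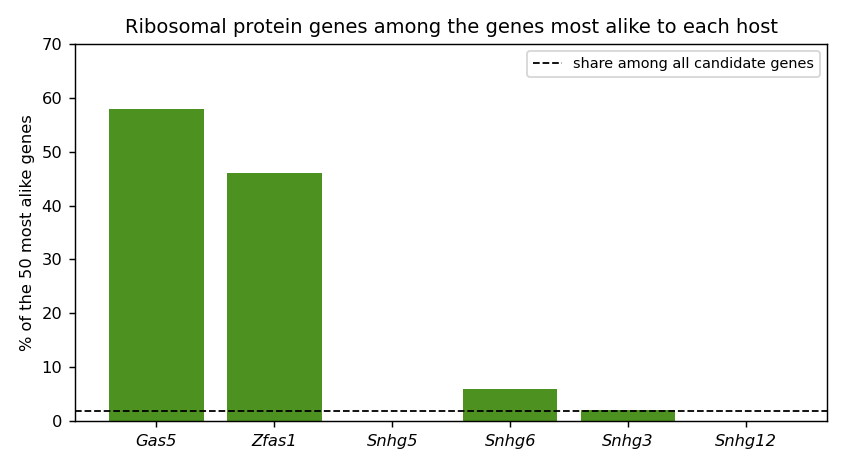
Percent of the 50 genes most alike to each host that are cytosolic ribosomal protein genes, by host on the horizontal axis, with a dashed line at their share of all candidate genes (1.90%). Gas5 (58.0%) and Zfas1 (46.0%) stand high, and the other hosts are at 6.00% or less.

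The other hosts had different companions. For Snhg5 they were Rrm2, the ribonucleotide reductase subunit of S phase cells (0.46), Ptbp1, a splicing regulator (0.46), and Cd48, a surface receptor of blood cells (0.45). For Snhg3 they were Mrpl12, a mitochondrial ribosomal protein (0.47), Kansl2 (0.45) and Nme4 (0.44). For Snhg6 they were Ubl7 (0.42), Nkg7 (0.41) and Gnl2, a nucleolar GTPase (0.41), and for Snhg12 Pdk1 (0.46), Amd1 (0.41) and Uri1 (0.40). The 50 genes most like Snhg5 held 5 of the 66 S or G2/M genes among the 4157 candidates. They held 0 ribosomal protein genes, which are 1.90% of the candidates. The 50 most like any of the other 5 hosts held 0 S or G2/M genes. Both lists are so small a part of the candidates that a count of 0 among 50 sets no host apart.

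Against the mean level of 18 translation genes with 5′ TOP mRNAs, with genes detected regressed out, Gas5 had a rho of 0.33 at 14 months and 0.45 at 4 months, and Zfas1 of 0.38 and 0.33. All measured genes had a median rho of 0.02 at 14 months, against 0.04 at 4 months. Snhg5 was at 0.13 at 14 months and 0.42 at 4 months. Snhg12, whose start holds the longest pyrimidine tract shown above (8 bases), was at 0.14 at 14 months and 0.12 at 4 months. Without that regression, Gas5 was at 0.22 at 14 months and 0.39 at 4 months, and Zfas1 at 0.52 and 0.30. Snhg5 was then at 0.31 and 0.62, and Snhg12 at 0.32 and 0.28. The unregressed median rho of all measured genes was 0.20 at 14 months and 0.22 at 4 months. Gas5 at 14 months thus lay near the median gene unless genes detected were regressed out. Zfas1 has no such tract within 5 bases of its start, and a relation of tract to rho was not tested.

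Of 15 other noncoding snoRNA hosts looked up, 6 were measured, 3 above and 3 below the median gene with age and 0 past a relative difference of 1 either way. Snhg9 was at -0.92 (18.2% of 14-month and 35.9% of 4-month cells) and Epb41l4aos at -0.70 (31.8% and 46.9%). Snhg15 was at -0.09, Snhg16 at 0.11, Snhg20 at 0.22 and Snhg17 at 0.27. In set 4, Snhg16 (-0.05) and Snhg17 (-0.10) lay below the median gene. Of 36 coding genes that host snoRNAs, 15 lay above and 21 below the median gene, 3 past 1 and 3 past -1. Of all measured genes, 3.37% lay past 1 and 5.08% past -1. The highest were Rps12, a small ribosomal subunit protein (2.86), and Dkc1, the pseudouridine synthase dyskerin (1.46). The lowest were the elongation factor Eef2 (-2.10) and Nop56, a core protein of box C/D particles (-1.50).

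The genes of proteins that assemble with snoRNAs were followed next, and some of them, such as Dkc1 and Nop56, stand in more than 1 list. Of 11 genes for box C/D particles, 5 lay above and 6 below the median gene, 1 past 1 and 2 past -1. The shares over all measured genes were 3.37% and 5.08%. Snu13, which binds the box C/D motif, was at 1.18, Ruvbl2 at 0.84, the assembly ATPase Ruvbl1 at -1.48 and Nop56 at -1.50. By set, Ruvbl2 was at 0.06 in set 4 and 1.49 in set 5. All 6 genes for box H/ACA particles lay above the median gene, 1 of them past 1, with Dkc1 at 1.46 and Shq1 at 0.69 highest and Nop10 at 0.06 and Gar1 at 0.01 lowest. In set 4, Nop10 (-0.15) and Gar1 (-0.21) lay below it.

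Of 15 measured factors of nonsense-mediated decay, the route that degrades spliced host RNAs, 9 lay above and 6 below, 0 past 1 and 1 past -1. For this and the lists that follow, 3.37% of all measured genes lay past 1 and 5.08% past -1. No list was tested against these shares. Upf3b was at 0.98 and Eif4a3, of the exon junction complex, at 0.80, while the helicase Upf1 was at -0.91. Of the 18 genes with 5′ TOP mRNAs, 8 lay above and 10 below, 1 past 1 and 4 past -1. Npm1, nucleophosmin, was highest (1.46), then Hnrnpa1 (0.99), with Eif4b (-1.59) and Eef2 (-2.10) lowest. Of 10 regulators of such mRNAs, 6 lay above and 4 below with 0 past 1 either way, from Cnbp (0.89) and Eif4ebp1 (0.69) to Rps6kb1 (-0.40) and Tia1 (-0.55). Of 18 nucleolar genes, 8 lay above and 10 below, 3 past 1, with Dkc1 and Npm1 (both 1.46) highest and Nip7 (-0.57) and Gnl3 (-0.70) lowest. Of 9 measured growth arrest genes of 15 listed, 4 lay above and 5 below, 2 past -1, with Btg1 (0.89) and Trp53 (0.78) highest and Txnip (-2.72) and Btg2 (-2.97) lowest. Upf3b, Rps6kb1 and Trp53 had opposite signs in the 14-month sets. Set 4 and set 5 gave -0.07 and 1.84 for Upf3b, -1.16 and 0.22 for Rps6kb1, and -0.51 and 1.82 for Trp53.

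Of the genes the sort selected for, Flt3 was detected in 92.4% of 14-month and 100% of 4-month cells, and Cd34 in 87.9% and 89.1%. The Sca-1 gene Ly6a was found in 37.9% of 14-month and 39.1% of 4-month cells, and Kit in 53.0% and 67.2%. Of those it selected against, Slamf1, Cd3e and Ly6g were listed at 0 in all kept cells. Itgam was detected in 25.8% of 14-month and 68.8% of 4-month cells and Ly6c1 in 19.7% and 21.9%. Ly6c2 was detected in 12.1% of 14-month cells, up to 6592 TPM, and listed at 0 in all 4-month cells. Over 6 neutrophil markers the summed level ran from 0 to 364930 TPM at 14 months and from 0 to 974 TPM at 4 months. The highest 14-month cell, of set 5, owed its sum to 1 gene, Camp, which encodes a granule peptide, and the next 14-month cell was at 266 TPM. Ltf, Ngp and Ly6g were listed at 0 in all kept cells. The cell with Camp had 1021 genes detected and Gas5 listed at 0. Without it, a choice made after seeing the data, the relative difference of Gas5 was 0.36 between the ages and -1.44 across the G2/M cut at 14 months. The second value lies past -1.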

How the data were processed

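RNA of single LMPPs was amplified on a Fluidigm C1 chip, per the labels' protocols, and the authors deposited 1 table of TPM values per gene and cell. RSEM 1.2.12, Bowtie2 2.2.0 and build mm10 are named, per the submitters' processing notes. Each column sums to 1000000, so read depth is unknown and a high gene lowers the others. The labels list 83 cells of 14 months while the table has 84 columns, and the extra column cannot be singled out. Symbols were matched for 37607 of 38924 identifiers. Levels were compared as log2(TPM + 1) and shares at TPM 1 or more, with exact 95% intervals, in Python 3.11.15, numpy 2.4.6, pandas 2.3.3 and scipy 1.17.1. Scripts were tested on simulated data. The members and lists were chosen with earlier results of these data known. Genes named besides the members are the other measured noncoding hosts, the 2 highest and 2 lowest of each list with age, genes overlapping a host or starting within 1000 bases of its start, and the 3 genes most alike to each host. Some genes that this rule takes are not reported here. Alternatives changed the pseudocount, cell and gene filters, scaling, cell matching, sets and cuts. Doublets were not called.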

Additional observations from a re-analysis of the deposited data

How the results depend on the processing

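With age, the median over the 6 hosts was 0.23 and ran from -0.40 to 0.51 over 17 alternatives, with -0.40 in set 4 alone. The number of hosts past a relative difference of 1 either way was 1 in place of 0 with pseudocount 0.1, with cells of 2000 or more genes, with medians over cells and with cells matched on genes detected. Across the G2/M cut the median was 0.13 at 14 months, but 1.12 when split at 25% of the S list and -0.66 in matched cells. At 4 months it was 0.69, and -0.66 in matched cells. In matched cells Snhg5 turned to -0.077 at 14 months and Snhg3 to -2.20 at 4 months, with 10 cells past and 10 under at 14 months and 12 and 12 at 4 months. The median rho over pairs of hosts at 14 months was 0.18, and 0.028 after quantile normalization. The cause was not tested. All 24 shares at TPM above 0 or TPM 5 or more stayed within their intervals at TPM 1. No paired analysis was possible because the numbers that the labels of both ages share name captured cells, and the columns carry no such number. One sample an age, unknown depth and a capture that cannot be told apart from age limit every value here.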

Other observations

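The columns left out for having fewer than 1000 genes, 18 at 14 months and 20 at 4 months, had a median of 581 genes at 14 months and 516 at 4 months. Gas5 was detected in 8 of the 18 and in 6 of the 20, with a highest value of 6659 TPM at 14 months and 2728 TPM at 4 months. Zfas1 was listed at 0 in all 38 of these columns. Snhg5 was detected in 4 of the 18, with a highest value of 5996 TPM, and in 0 of the 20.

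Gas5 was listed at 0 in 4 kept cells, 2 of each age, which had 1021 and 1052 genes detected at 14 months and 1066 and 2349 at 4 months. In 3 of these cells none of the 6 hosts was detected. Eef1a1, an abundant elongation factor, was present in all 4, from 4431 to 6896 TPM.

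Slc3a2, the amino acid transporter subunit whose start lies 106 bases from that of Snhg1 on the other strand, was detected in 72.7% of 14-month and 98.4% of 4-month cells, with a relative difference of -1.51. Snhg1 itself has no value here.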
